A study of Mus musculus with 32 samples.

Results

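The genes described here encode the translation initiation factors (eIFs) and elongation factors (eEFs) of the mouse. They were taken by name, as every gene whose symbol starts with Eif1 to Eif6 or with Eef1 or Eef2, without pseudogenes, the Y-linked Eif2s3y, the eIF2 kinases and Eif4enif1. The rule gave 59 of the 46078 genes listed, and no measured value entered it. Messenger RNA was profiled in 32 libraries from early mouse embryos in a comparison of wild type with embryos mutant for Dppa2 or Dppa4, a pair of related nuclear proteins. Late 2-cell embryos (28 h after fertilisation) and late 1-cell embryos (12 h) were both sampled. In the genotype names, m is the allele that came through the egg and z the allele of the embryo itself, each present (+) or absent (-).

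The 16 total RNA libraries held m-z+ embryos, labelled as without the maternal product, and m+z+ controls. There were 2 of each at the 2-cell and the 1-cell stage, for Dppa2 and for Dppa4 separately, called the arms below. Embryos of the Dppa2 arm carried a B6/DBA mix and those of the Dppa4 arm were B6, so gene and strain cannot be told apart between arms. The 16 polyA libraries were made from single embryos, per the labels. They held 3 m-z- and 3 m-z+ 2-cell embryos of the Dppa2 arm (B6/DBA), 3 and 3 of the Dppa4 arm (B6), and 2 WT embryos at each stage (B6). The labels do not say that replicates came from separate animals, so a p-value here measures only the spread between these libraries.

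Initiation factors bring the ribosome to the start codon of a messenger RNA. The eIF4 group binds the cap and unwinds the leader, eIF2 carries the initiator transfer RNA, eIF3 holds the small subunit, eIF1 and eIF1A monitor the start codon, and eIF5 and eIF5B act as the subunits join. Elongation factors then deliver aminoacyl-transfer RNA (eEF1) and move the ribosome along (eEF2). In the mouse the 1-cell embryo lives largely on messages stored in the egg, and most transcription from its own genome begins by the 2-cell stage.

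Levels are in FPKM, fragments per kilobase of transcript, scaled to the reads mapped in the library, so that a level is a share of the RNA in its library and is corrected for gene length. The depth of the libraries is unknown. The deposited values summed to between 412115 and 629583 per library in total RNA and to between 539978 and 675241 in polyA RNA. The 59 genes together took 0.382% to 0.482% of that sum at the 2-cell stage and 0.671% to 0.768% at the 1-cell stage in total RNA, without overlap. Their share was 0.644% to 1.09% in polyA RNA. There the stages overlapped in WT embryos, at 0.919% and 0.830% in 2-cell and 0.861% and 0.910% in 1-cell libraries. All 5 maternal marker genes were detected in every library; their summed level was 253 to 593 FPKM at the 2-cell stage and 1172 to 1702 FPKM at the 1-cell stage in total RNA. Markers of blood summed to 4.92 to 14.9 FPKM in 2-cell and to at most 0.0825 FPKM in 1-cell total RNA, with both Hbb genes at 0 in all 16, and reached 1578 FPKM in polyA replicate 3 labelled Dppa2 m-z-. Cumulus markers (8 genes) summed to 1.92 to 9.46 FPKM in total RNA and 8.38 to 43.4 FPKM in polyA RNA. Cyp19a1 reached 8.52 FPKM in total and 17.9 FPKM in polyA RNA, and Tnfaip6 reached 4.06 and 43.4 FPKM. Inha was at 0 throughout, and Amh, Foxl2, Fshr, Has2 and Ptx3 reached at most 1.06 FPKM. The part of other cells in the results was not tested. The libraries labelled Dppa2 m-z- had 155, 130.2 and 76.5 FPKM of Dppa2 RNA, against 92.4, 87.4 and 63.3 FPKM in Dppa2 m-z+ embryos, so the label is not borne out by the level of its RNA. Dppa4 was at 0, 0 and 0.149 FPKM where the label was Dppa4 m-z-, against 155, 152 and 125 FPKM in the m-z+ embryos of that arm. In 1-cell total RNA Dppa2 was at 9.38 and 9.52 FPKM in Dppa2 m-z+ embryos, against 32.3 and 32.7 FPKM in their controls. Dppa4 was at 1.13 and 0 FPKM in 1-cell Dppa4 m-z+ embryos, against 4.37 and 6.92 FPKM in their controls. Protein was not measured.

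The levels of all 59 genes covered a wide range of FPKM. In polyA RNA of WT 2-cell embryos the most abundant was Eif1 (711 ± 2.83 FPKM, SD, n = 2), followed by Eif5a (523 ± 40.7) and Eif5 (426 ± 14.9), whereas in WT 1-cell embryos the leading gene was Eif1b (742 ± 25.1 FPKM, SD, n = 2), followed by Eif2b1 (519.6 ± 26.3) and Eif1 (405 ± 76). In total RNA of 2-cell Dppa2-arm controls Eif4g2 led with 295 ± 18.4 FPKM (SD, n = 2), ahead of Eif5a at 176 ± 16.3, and in the 1-cell controls Eef1a1 led with 336 ± 25.9 FPKM, ahead of Eif1b at 228 ± 17.4. The top gene stood apart from its neighbour by more than their summed SDs in each of these 4 groups. At the other end Eef1a2, the elongation factor 1A form of muscle and nerve, did not exceed 0.253 FPKM in any library. Eif2c5, which carries a former Argonaute name and is annotated as a long noncoding RNA, stayed at or below 1.36 FPKM.

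**Figure D1:**
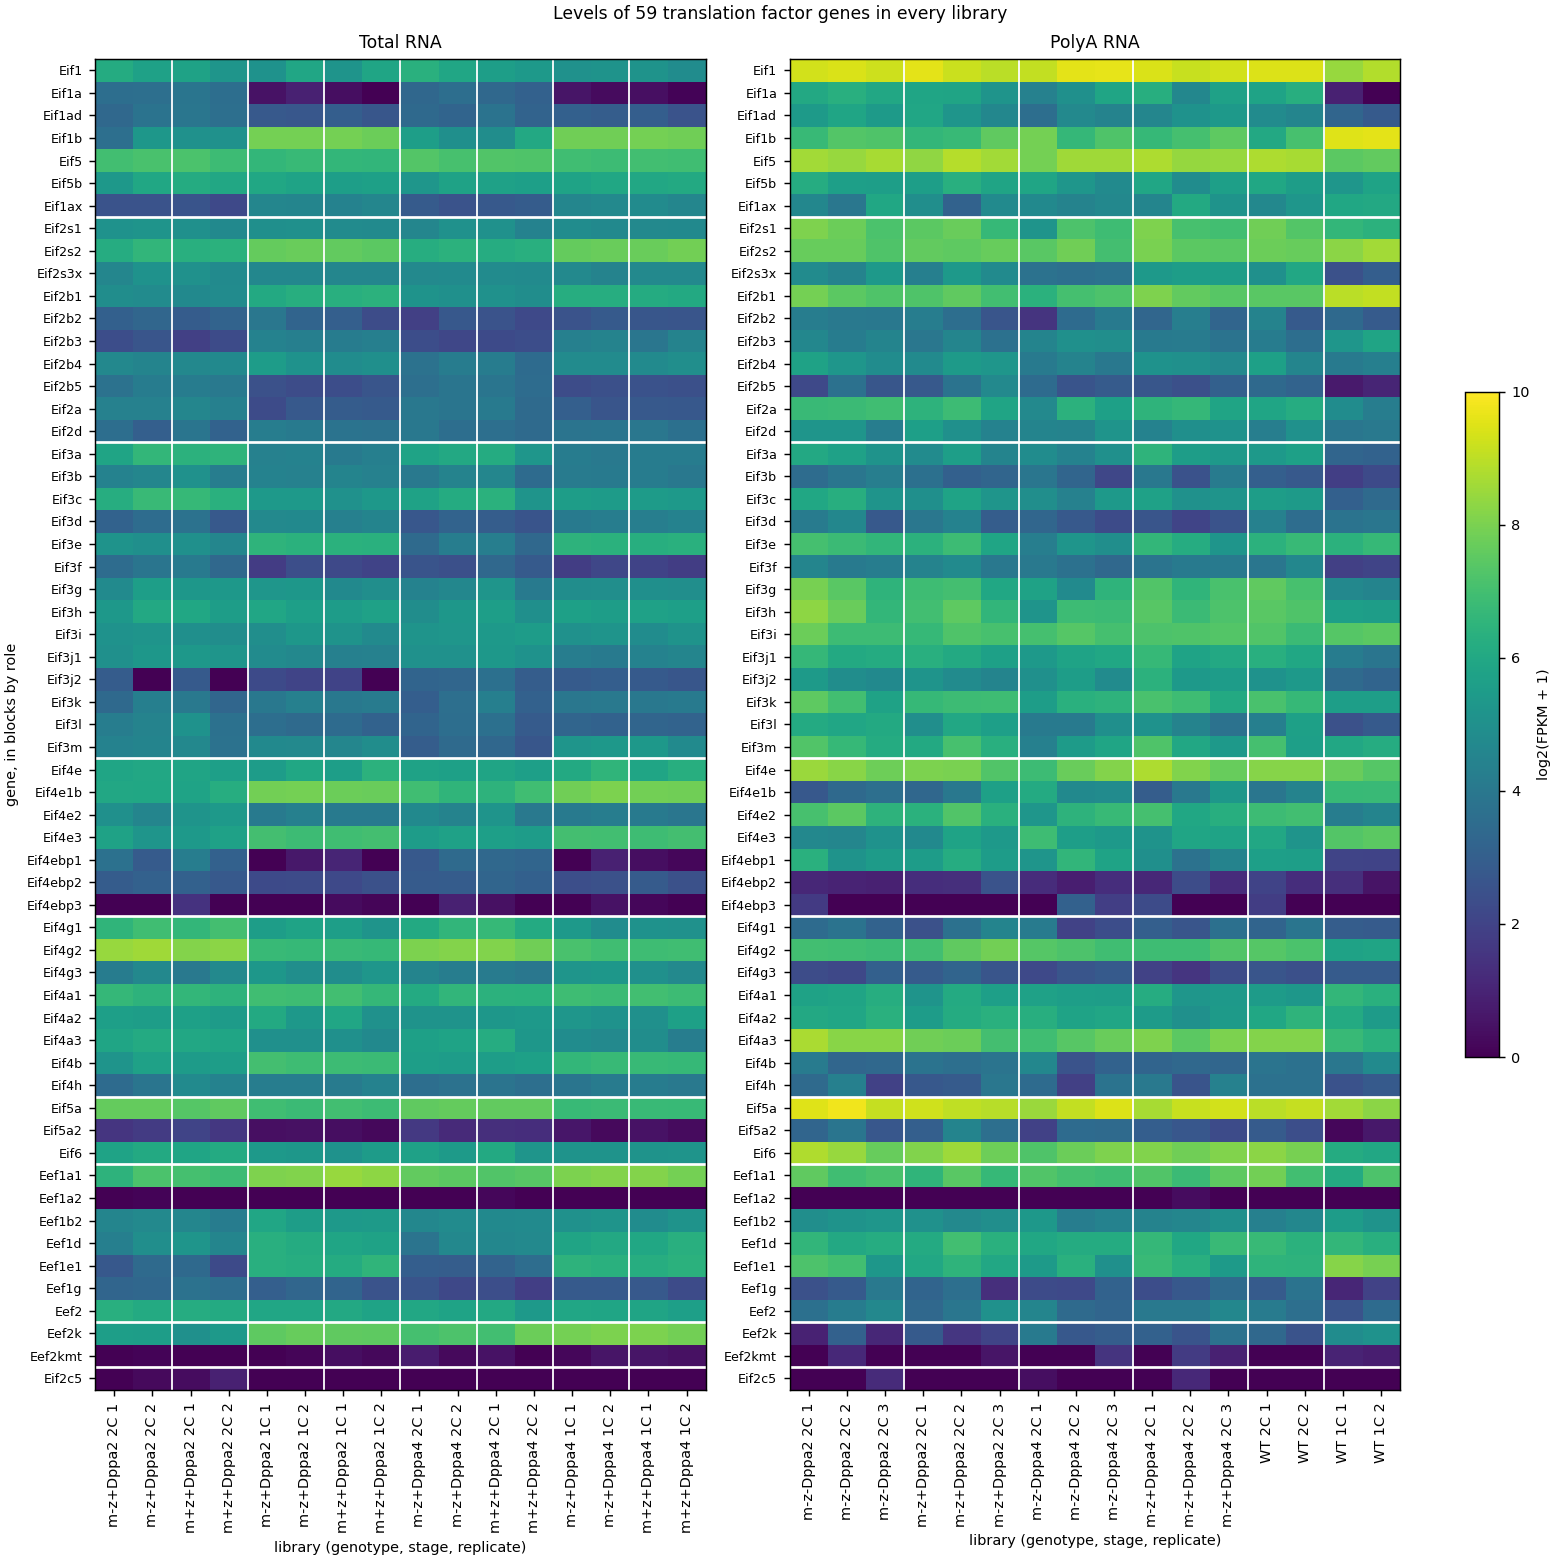
Each row is a translation factor gene and each column a library, total RNA at left and polyA RNA at right; colour gives log2(FPKM + 1), white lines separate roles and groups. Eif1a is dark in every 1-cell library and Eif1b bright there, while Eef1a2 and Eif2c5 are dark throughout.

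Messages of the translation factors were remodelled gene by gene between the stages, with rises and falls in nearly every complex. The change was tested on log2(FPKM + 1), which understates the change of low genes, with limma and Benjamini-Hochberg adjustment over every gene that reached 1 FPKM in 2 or more libraries (15068 genes in total RNA, 18506 in polyA RNA), and called at an adjusted p under 0.05. That filter kept 55 of the 59 genes in total RNA, where Eef1a2, Eef2kmt, Eif2c5 and Eif4ebp3 were too low, and 58 in polyA RNA, where Eef1a2 was. In total RNA of Dppa2-arm controls 20 of the 55 were higher and 16 lower at the 2-cell stage, against 31.7% and 29.9% of all genes, and their median change was 0.21, against 0.06 for all genes. Dppa4-arm controls had 14 higher and 18 lower, against 24.9% and 24.2% of all genes, with medians of -0.22 and 0.04. The m-z+ embryos had 16 higher and 19 lower in the Dppa2 arm, against 28.8% and 28.4%, and 12 higher and 18 lower in the Dppa4 arm, against 25.3% and 25%. Shares of this size were near those of all genes. In these bulk libraries fewer cells that hold a message and less of it per cell cannot be told apart. The medians rested on single libraries: that of Dppa2-arm controls was -0.04 without 2-cell replicate 1, and that of Dppa4-arm controls 0.12 without 2-cell replicate 2.

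PolyA RNA gave another balance. In WT embryos 21 of the 58 were higher and 7 lower at the 2-cell stage, against 17.4% and 8.42% of all genes, and the median change was 0.80, against 0.23 for all genes. With only 2 libraries a stage the count was 18 without WT 1-cell replicate 1 and 18 without WT 2-cell replicate 1, and 19 without either of the others. The calls of Eif1, Eif2a, Eif3h, Eif4a1 and Eef2k were lost when any of the 4 libraries was left out. The balance in total RNA depended on scaling, since rescaling every library to the same sum (TPM) shifted the median of all genes by -0.20 to -0.36 and median-ratio scaling shifted it by 0.14 to 0.17. With TPM the split was 13 higher and 21 lower in Dppa2-arm controls, 11 and 23 in Dppa4-arm controls and 10 and 26 in Dppa4 m-z+ embryos. Of all 15068 genes, 9552, 7921 and 8165 were called in either direction there. With median-ratio scaling the split was 18 and 15 in Dppa4-arm controls and 21 and 15 in Dppa2 m-z+ embryos, where 7379 and 8676 of all genes were called.

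Across all 4 total RNA comparisons of 2-cell with 1-cell embryos, 11 members were higher every time (18.6% of all genes tested were) and 15 were lower every time (17.9%). The 11 were Eif1a, Eif2a, Eif2b5, Eif3a, Eif3j1, Eif4a3, Eif4ebp1, Eif4g1, Eif4g2, Eif5a and Eif5a2. The 15 were Eif1ax, Eif1b, Eif2b1, Eif2b3, Eif2s2, Eif3d, Eif3e, Eif4b, Eif4e1b, Eif4e3, Eif4g3, Eef1a1, Eef1d, Eef1e1 and Eef2k. With TPM the first list lost Eif3j1, Eif4a3 and Eif5a, and the second gained Eef1b2, Eif2b4 and Eif4a1. With median-ratio scaling the first gained Eif4ebp2, Eif5 and Eif6, and the second lost Eef1a1, Eef2k and Eif4g3.

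Single libraries carried some calls of the stage comparisons in total RNA, first among the controls. Without 2-cell replicate 1 of the Dppa2-arm controls the calls of Eef1g, Eif3l, Eif4ebp2, Eif4g3 and Eif5 were lost. Without 2-cell replicate 2 the calls of Eef1d and Eif6 were lost. Without 1-cell replicate 1 the calls of Eef1d, Eif4ebp2, Eif5 and Eif6 were lost. Without 1-cell replicate 2 the calls of Eef1g, Eif1ad, Eif3l, Eif4g3 and Eif5 were lost. In the Dppa4 arm the same was seen. Without 2-cell replicate 1 of the Dppa4-arm controls the calls of Eef1a1, Eef2k, Eif1ad, Eif2a, Eif3f, Eif3i and Eif4a1 were lost. Without its 2-cell replicate 2 the calls of Eif3i, Eif4a1 and Eif4g3 were lost. Without its 1-cell replicate 1 the calls of Eef1a1, Eef2k, Eif3i, Eif4a1 and Eif4g3 were lost. Without its 1-cell replicate 2 the calls of Eef2k, Eif1ad, Eif4a1 and Eif5a2 were lost. Calls of the m-z+ embryos rested on single libraries as well. Without 2-cell replicate 1 of the Dppa2 m-z+ embryos the calls of Eif4g3 and Eif4h were lost. Without 2-cell replicate 2 of that group the calls of Eif1ad, Eif2b4, Eif2d, Eif3c, Eif3j1, Eif4ebp2 and Eif5 were lost. Without 1-cell replicate 1 of that group the calls of Eif2b4, Eif2d, Eif3j1, Eif4ebp2, Eif4g3, Eif4h and Eif5 were lost. Without 1-cell replicate 2 of that group the calls of Eif1ad, Eif3j1, Eif4h and Eif5 were lost. Without 2-cell replicate 1 of the Dppa4 m-z+ embryos the calls of Eef1a1, Eif1, Eif2b4 and Eif4a1 were lost. Without the second 2-cell library there the calls of Eef1a1, Eif4a3 and Eif4g3 were lost. Without the first 1-cell library there the calls of Eef1a1, Eif1 and Eif4a1 were lost. Without the second 1-cell library there the calls of Eef1a1, Eif4a1, Eif4a3, Eif4g3 and Eif5a2 were lost. Of the 11 and 15 members above, Eif3j1 was thus lost without 3 of the 4 libraries of Dppa2 m-z+ embryos (limma adjusted p up to 0.481 across the alternatives) and Eef1a1 without any of the 4 of Dppa4 m-z+ embryos (up to 0.131).

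**Figure D2:**
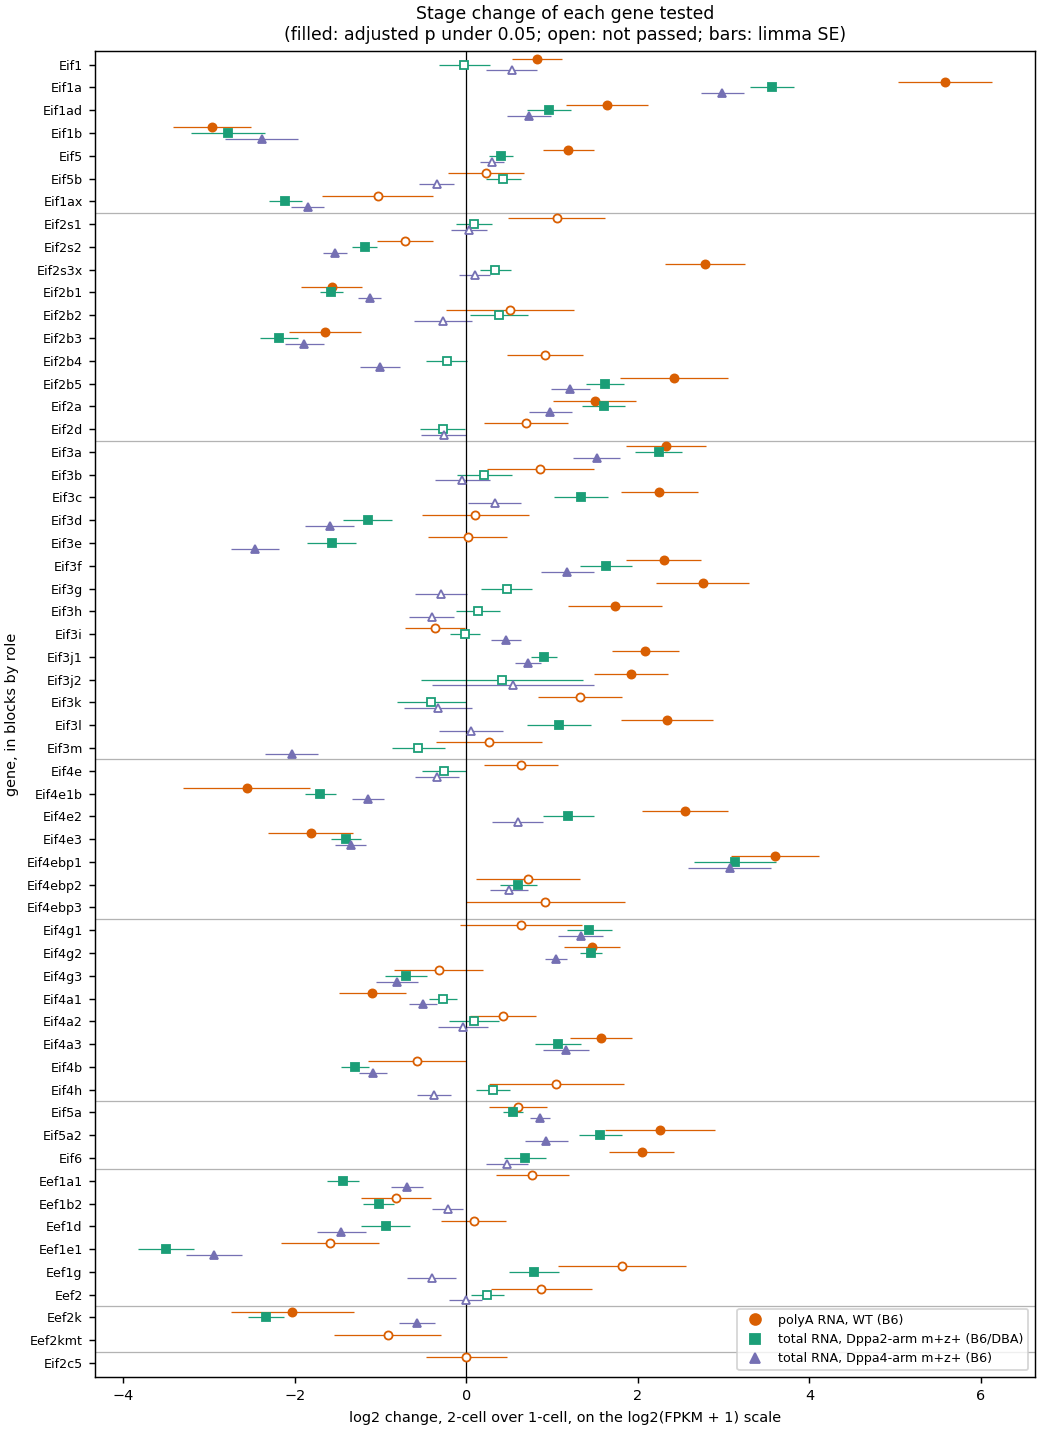
Log2 change between 2-cell and 1-cell embryos (x axis, log2(FPKM + 1) scale) of every gene tested, in polyA RNA of WT embryos and in total RNA of controls of both arms; bars are limma standard errors and filled symbols passed an adjusted p of 0.05. Eif1a lies farthest to the right at 5.58 in polyA RNA, and Eef1e1 farthest to the left at -3.50 in total RNA of the Dppa2 arm.

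Among the factors that read the start codon, the more abundant gene of 2 pairs differed between the stages in polyA RNA, Eif1a and Eif1 at the 2-cell stage and Eif1ax and Eif1b at the 1-cell stage. Eif1a, a gene for eIF1A, was all but absent from 1-cell embryos. Its level was 55.1 and 76.2 FPKM in WT 2-cell polyA RNA, against 0.888 and 0 FPKM in WT 1-cell embryos, a log2 change of 5.58 (SE 0.55, limma adjusted p 7.47e-07). In total RNA it was 13.7 and 11.3 FPKM in 2-cell and 0.289 and 0 FPKM in 1-cell Dppa2-arm controls (log2 difference 3.56, SE 0.25, limma adjusted p 2.11e-07). Dppa4-arm controls had 9.34 and 7.62 FPKM in 2-cell embryos, against 0.317 and 0.0792 FPKM in 1-cell embryos, a change of 2.99 (SE 0.25, limma adjusted p 1.39e-06). Neither table had any overlap between the stages, and the m-z+ embryos of the Dppa2 and Dppa4 arms changed by 2.95 and 3.06.

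Eif1ax, the X-linked gene for the same factor (chrX:159372178-159389928, plus strand, mm10), moved the other way. Dppa2-arm controls had 5.09 and 3.63 FPKM in 2-cell embryos, against 20.8 and 23 FPKM in 1-cell embryos, a log2 change of -2.11 (SE 0.20, limma adjusted p 1.82e-06). The change in Dppa4-arm controls was -1.85 (SE 0.20, limma adjusted p 9.08e-06), with 5.97 and 6.47 FPKM in 2-cell and 27.2 and 23 FPKM in 1-cell embryos. In WT polyA RNA the levels were 24.5 and 37.2 FPKM in 2-cell and 61.1 and 64.8 FPKM in 1-cell embryos, which did not overlap, but the change of -1.04 (SE 0.65, limma adjusted p 0.27) did not pass, with a 95% interval of -2.40 to 0.33. Eif1a made up 69.2% and 67.2% of the summed FPKM of the pair in WT 2-cell polyA libraries, and 1.43% and 0% in the 1-cell ones. The corresponding shares were 72.9% and 75.7% in 2-cell and 1.37% and 0% in 1-cell Dppa2-arm controls, and 61.0% and 54.1% in 2-cell and 1.15% and 0.343% in 1-cell Dppa4-arm controls. The sum of the pair was 79.6 and 113 FPKM in 2-cell and 62.0 and 64.8 FPKM in 1-cell WT polyA libraries. It was 18.8 and 14.9 FPKM in 2-cell and 21.1 and 23.0 FPKM in 1-cell Dppa2-arm controls, and 15.3 and 14.1 FPKM in 2-cell and 27.5 and 23.1 FPKM in 1-cell Dppa4-arm controls. The summed level was thus higher at the 2-cell stage in polyA RNA and lower at that stage in total RNA, with no overlap in any of the 3 sets; the sum was not tested.

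Eif1b, the second gene for eIF1 (chr9:120492232-120495330, plus strand), fell in all 5 stage comparisons. WT polyA RNA held 65.2 and 135 FPKM of it at the 2-cell stage and 724 and 759 FPKM at the 1-cell stage (log2 difference -2.97, SE 0.45, limma adjusted p 9.78e-05). In total RNA it had 32.5 and 32.2 FPKM in 2-cell and 240.0 and 215 FPKM in 1-cell Dppa2-arm controls (log2 difference -2.78, SE 0.43, limma adjusted p 0.000115), and 29.2 and 65.5 against 239 and 227 FPKM in Dppa4-arm controls (log2 difference -2.39, SE 0.43, limma adjusted p 0.000551). Its partner Eif1 (chr11:100319885-100322096, plus strand) had 709 and 713 FPKM in 2-cell and 351 and 458 FPKM in 1-cell WT polyA RNA. That change of 0.82 (SE 0.29, limma adjusted p 0.0427) passed narrowly, and its adjusted p reached 0.284 across the alternatives tried. Eif1 did not pass in total RNA of Dppa2-arm controls (53.2 and 36.6 FPKM in 2-cell embryos, against 35.3 and 57.1 FPKM in 1-cell embryos, log2 difference -0.03, SE 0.30, limma adjusted p 0.95). Eif1 was 91.6% and 84.1% of the pair in WT 2-cell polyA RNA and 32.7% and 37.6% in WT 1-cell polyA RNA, and the 2-cell shares were above the 1-cell shares in both total RNA control groups as well. Of 50-base stretches of Eif1, 19.2% also occur in other transcripts, while Eif1b and Eif1ax shared none.

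**Figure D3:**
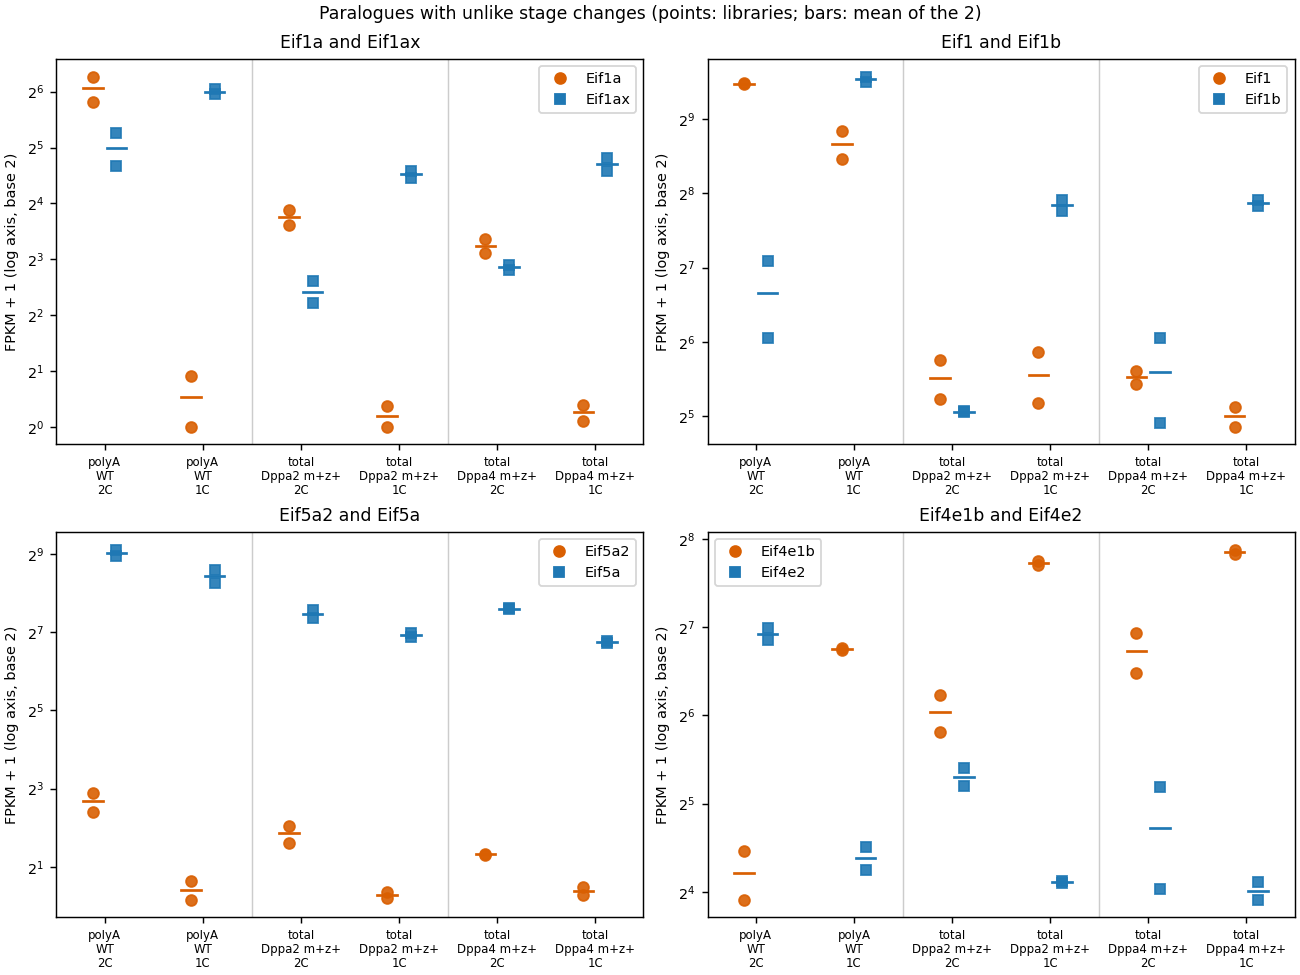
Levels of 4 pairs of related genes in each library of WT polyA RNA and of control total RNA (y axis, FPKM + 1, log axis with base 2; points are libraries, bars their mean). Within 3 of the pairs the order of the genes differs between 2-cell and 1-cell libraries in polyA RNA: Eif1a is above Eif1ax, Eif1 above Eif1b and Eif4e2 above Eif4e1b at the 2-cell stage, while Eif5a2 stays below Eif5a.

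Eif1ad, which encodes a protein with an eIF1A-like domain, was grouped here with the start-codon factors by its name. It rose with changes of 1.64 in polyA RNA, 0.96 in Dppa2-arm and 0.73 in Dppa4-arm controls (limma adjusted p 0.0168, 0.00605 and 0.0319). Eif5, the GTPase activator of eIF2, was at 436 and 415 FPKM in 2-cell and 178 and 194 FPKM in 1-cell WT polyA RNA (log2 difference 1.19, SE 0.30, limma adjusted p 0.00707). In total RNA of Dppa2-arm controls its change was 0.41 and turned to -0.06 (adjusted p 0.773) with TPM. Eif5b, which joins the subunits, passed in none of these 3 comparisons, with changes of 0.23, 0.43 and -0.34.

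The ternary complex and its exchange factor eIF2B showed unlike changes of their subunits. The beta subunit gene Eif2s2 fell in total RNA, to 78.8 and 81.7 FPKM in 2-cell Dppa2-arm controls, against 190.2 and 178 FPKM in 1-cell controls (log2 difference -1.19, SE 0.14, limma adjusted p 1.53e-05), and by 1.53 (SE 0.14, limma adjusted p 3.14e-06) in Dppa4-arm controls. Its polyA change of -0.72 (SE 0.32, limma adjusted p 0.117) did not pass. The alpha subunit gene Eif2s1 passed in none of the 3 comparisons, with 31.4 and 26.1 FPKM in 2-cell and 27 and 26.8 FPKM in 1-cell Dppa2-arm controls.

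Eif2s3x, the X-linked gene of the gamma subunit (chrX:94188707-94212862, minus strand), differed by kind of RNA. In WT polyA RNA it had 31.5 and 63.4 FPKM in 2-cell and 4.57 and 6.94 FPKM in 1-cell embryos (log2 difference 2.78, SE 0.46, limma adjusted p 0.000216), so that the lowest 2-cell embryo was above the highest 1-cell embryo. Total RNA held 32.3 and 26.6 FPKM in 2-cell and 22.9 and 23.1 FPKM in 1-cell Dppa2-arm controls (log2 difference 0.34, SE 0.18, limma adjusted p 0.119). In Dppa4-arm controls it was 27 and 26.2 FPKM in 2-cell and 24.8 and 24.9 FPKM in 1-cell embryos (log2 difference 0.10, SE 0.18, limma adjusted p 0.681). The 95% intervals in total RNA, -0.05 to 0.73 and -0.29 to 0.48, lay below the lower bound of the polyA interval (1.81 to 3.75), though the tables were normalised separately and no test spans them. Gm2223 holds 34.6% of the 50-base stretches of Eif2s3x, and reads from the copies may have been split between them.

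The eIF2B complex recharges eIF2 with GTP, and its 5 subunit genes went in different directions. Eif2b1 fell, to 175 and 173 FPKM in WT 2-cell polyA RNA, against 501 and 538 FPKM in WT 1-cell embryos (log2 difference -1.57, SE 0.35, limma adjusted p 0.00305), with changes of -1.57 and -1.13 in the 2 control groups of total RNA. Eif2b3 was lower as well, with 2.74 and 3.84 FPKM in 2-cell and 17.6 and 19.2 FPKM in 1-cell Dppa2-arm controls (log2 difference -2.19, SE 0.23, limma adjusted p 4.01e-06). Eif2b5, the catalytic epsilon subunit, rose in all 3 comparisons. It had 17.3 and 15.3 FPKM in 2-cell and 4.13 and 5.19 FPKM in 1-cell Dppa2-arm controls (log2 difference 1.62, SE 0.22, limma adjusted p 4.47e-05), and 9.59 and 8.13 FPKM in 2-cell and 0.67 and 1.02 FPKM in 1-cell WT polyA RNA (log2 difference 2.42, SE 0.63, limma adjusted p 0.00824). Eif2b2 passed in none, and Eif2b4 fell in Dppa4-arm controls (log2 difference -1.01, SE 0.24, limma adjusted p 0.0034) with a change of -0.23 in Dppa2-arm controls. Eif2a, an alternative carrier of initiator transfer RNA that is not a subunit of eIF2, had 58.5 and 72.8 FPKM in 2-cell and 28.1 and 18 FPKM in 1-cell WT polyA RNA and rose there (limma adjusted p 0.0301), in Dppa2-arm controls (by 1.60) and in Dppa4-arm controls (by 0.98). In polyA RNA the adjusted p of Eif2b5 reached 0.0672 and that of Eif2b3 0.103 across the alternatives tried, and the calls were lost without replicate 1 (Eif2b5) or replicate 2 (Eif2b3) of either WT stage.

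The scaffold eIF3 has 14 genes here, and in polyA RNA 8 were higher and 0 lower at the 2-cell stage, against 17.4% and 8.42% of all genes, with a median change of 1.82, against 0.23 for all genes. In total RNA 5 were higher and 2 lower in Dppa2-arm controls (31.7% and 29.9% of all genes) and 4 higher and 3 lower in Dppa4-arm controls (24.9% and 24.2%), with medians of 0.31 and 0.00, against 0.06 and 0.04 for all genes. The 8 higher in polyA RNA include Eif3j1 and Eif3j2, and 90.8% of the 50-base stretches of Eif3j2 also occur in Eif3j1. They also include Eif3h, whose call was lost when any WT library of that comparison was left out. Eif3a, the largest subunit (chr19:60761117-60790658, minus strand), was higher in every stage comparison. It had 84.9 and 89.1 FPKM in 2-cell and 16.5 and 18.7 FPKM in 1-cell Dppa2-arm controls (log2 difference 2.24, SE 0.27, limma adjusted p 1.69e-05). Dppa4-arm controls were at 70.6 and 37.6 FPKM in 2-cell and 17.4 and 17.3 FPKM in 1-cell embryos (log2 difference 1.52, SE 0.27, limma adjusted p 0.000575), and the second of the 2-cell libraries was the lower of the pair. WT polyA RNA held 41.4 and 50.1 FPKM in 2-cell embryos, against 8.70 and 7.85 FPKM in 1-cell embryos (log2 difference 2.33, SE 0.46, limma adjusted p 0.00117). The lowest 2-cell library exceeded the highest 1-cell library in all 3 sets.

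Eif3f (chr7:108934417-108942951, plus strand), a subunit with an MPN fold, rose to 15.9 and 9.50 FPKM in 2-cell Dppa2-arm controls, against 3.63 and 3.04 FPKM in 1-cell controls (log2 difference 1.63, SE 0.31, limma adjusted p 0.000526), and its polyA change was 2.30 (SE 0.44, limma adjusted p 0.00081). Eif3e, another core subunit, was among the largest falls in total RNA. Dppa4-arm controls held 18.6 and 9.52 FPKM of it in 2-cell and 76.2 and 80.7 FPKM in 1-cell embryos (log2 difference -2.47, SE 0.28, limma adjusted p 1.65e-05), and Dppa2-arm controls 31.7 and 22.8 FPKM in 2-cell and 82.4 and 80.9 FPKM in 1-cell embryos (log2 difference -1.57, SE 0.28, limma adjusted p 0.000391). In WT polyA RNA its levels overlapped between stages, at 84.1 and 106 FPKM in 2-cell and 85 and 102 FPKM in 1-cell embryos, with a change of 0.01 and a 95% interval of -0.95 to 0.98. Eif3d, the subunit that can itself bind caps, fell in total RNA by 1.15 and 1.59 in Dppa2-arm and Dppa4-arm controls. In polyA RNA, which keeps no strand, 43.3% of its exonic bases overlap the antisense gene Gm17638.

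The RNA-binding subunit gene Eif3g rose in polyA RNA but did not pass in total RNA. Its levels were 187 and 137 FPKM in 2-cell and 24.2 and 21.6 FPKM in 1-cell WT polyA RNA (log2 difference 2.76, SE 0.54, limma adjusted p 0.00102). Dppa2-arm controls had 37.9 and 39.3 FPKM in 2-cell and 25.5 and 29.8 FPKM in 1-cell total RNA (log2 difference 0.47, SE 0.30, limma adjusted p 0.19), and in Dppa4-arm controls the stages overlapped, with 35.7 and 16.6 FPKM in 2-cell and 30.4 and 29.9 FPKM in 1-cell embryos (log2 difference -0.29, SE 0.30, limma adjusted p 0.437). Eif3c and Eif3l rose in polyA RNA and in Dppa2-arm controls, by 2.25 and 1.34 for Eif3c and by 2.34 and 1.08 for Eif3l. Eif3m fell in Dppa4-arm controls alone among these comparisons (log2 difference -2.04, SE 0.31, limma adjusted p 0.000158), with a change of -0.56 in Dppa2-arm controls. Eif3j1, which encodes the loosely bound j subunit, rose in all 3 (2.09, 0.91 and 0.72). Its near copy Eif3j2 shares 90.8% of its 50-base stretches with Eif3j1, and it was listed at 0 in 3 libraries of the Dppa2 arm beside values of 3.02 to 6.51 FPKM in the other 5 and reads of the pair cannot be told apart over most of its length.

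Among the cap-binding proteins Eif4e1b and Eif4e3 fell and Eif4e2 was higher at the 2-cell stage. Eif4e, the general cap-binding protein, passed in none of the 3 comparisons and had 288 and 291 FPKM in 2-cell and 210.0 and 165 FPKM in 1-cell WT polyA RNA (log2 difference 0.64, SE 0.43, limma adjusted p 0.315). Eif4e1b, the family member of oocytes (chr13:54783998-54788459, plus strand), fell. It had 55.3 and 74 FPKM in 2-cell and 214 and 207 FPKM in 1-cell Dppa2-arm controls (log2 difference -1.70, SE 0.18, limma adjusted p 5.6e-06). Dppa4-arm controls had 88.2 and 122 FPKM in 2-cell and 234 and 226 FPKM in 1-cell embryos (log2 difference -1.14, SE 0.18, limma adjusted p 0.000227), and WT polyA RNA 14 and 21.1 FPKM in 2-cell and 106 and 107 FPKM in 1-cell embryos (log2 difference -2.56, SE 0.74, limma adjusted p 0.0157). No 2-cell library reached the level of a 1-cell library of its set. Eif4e3, another cap-binding relative, fell with changes of -1.81, -1.40 and -1.35.

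Eif4e2, which encodes the 4EHP protein known as a repressor of initiation, was higher in 2-cell embryos. In WT polyA RNA it was 115 and 126 FPKM in 2-cell and 18 and 21.7 FPKM in 1-cell embryos (log2 difference 2.55, SE 0.50, limma adjusted p 0.00108), and in Dppa2-arm controls 35.6 and 41.3 FPKM in 2-cell and 16.4 and 16.1 FPKM in 1-cell embryos (log2 difference 1.19, SE 0.30, limma adjusted p 0.0042). Dppa4-arm controls did not pass (log2 difference 0.60, SE 0.30, limma adjusted p 0.117), and their second 2-cell library, at 15.3 FPKM, lay within the 1-cell range of 16.2 and 14 FPKM. Eif4ebp1, the inhibitor that holds eIF4E away from eIF4G until mTOR phosphorylates it (chr8:27260329-27276674, plus strand), rose most among the genes of cap control. It had 48.5 and 48.2 FPKM in 2-cell and 3.11 and 3.03 FPKM in 1-cell WT polyA RNA (log2 difference 3.60, SE 0.51, limma adjusted p 4.49e-05). In total RNA it was 17.6 and 7.58 FPKM in 2-cell and 1.07 and 0 FPKM in 1-cell Dppa2-arm controls (log2 difference 3.14, SE 0.48, limma adjusted p 0.000109), and 9.54 and 8.69 FPKM in 2-cell and 0.299 and 0.117 FPKM in 1-cell Dppa4-arm controls (log2 difference 3.07, SE 0.48, limma adjusted p 0.000197). The related Eif4ebp2 changed by 0.61 (SE 0.22, limma adjusted p 0.0283) in Dppa2-arm controls, which passed, and by 0.50 and 0.72 in Dppa4-arm controls and polyA RNA, which did not. Across the alternatives tried the polyA adjusted p of Eif4e1b reached 0.105 and that of Eif4e3 0.128.

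Among the scaffolds that join the cap to the ribosome, Eif4g1 and Eif4g2 rose and Eif4g3 fell in total RNA. Eif4g2, whose product DAP5 lacks the cap-binding partner site, had 282 and 308 FPKM in 2-cell and 109.9 and 104 FPKM in 1-cell Dppa2-arm controls (log2 difference 1.45, SE 0.13, limma adjusted p 1.14e-06), the highest level of any member at the 2-cell stage there. WT polyA RNA gave 162 and 144 FPKM in 2-cell and 52.8 and 56.4 FPKM in 1-cell embryos (log2 difference 1.47, SE 0.33, limma adjusted p 0.00292). Eif4g1, the main scaffold, was 97.2 and 128 FPKM in 2-cell and 47.7 and 34.7 FPKM in 1-cell Dppa2-arm controls (log2 difference 1.43, SE 0.27, limma adjusted p 0.000477). Its polyA levels were 8.26 and 13.7 FPKM in 2-cell and 6.74 and 6.29 FPKM in 1-cell embryos, and that change did not pass (log2 difference 0.64, SE 0.71, limma adjusted p 0.565). Eif4g3 changed by -0.71 and -0.81 in Dppa2-arm and Dppa4-arm controls (limma adjusted p 0.0245 and 0.0161), and these calls were lost with median-ratio scaling.

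The helicase genes differed too. Eif4a3, which serves in the exon junction complex, rose in all 3 comparisons (1.58, 1.07 and 1.16). Eif4a1, the helicase of cap-dependent initiation, fell in polyA RNA (log2 difference -1.10, SE 0.39, limma adjusted p 0.0481) and in Dppa4-arm controls (log2 difference -0.51, SE 0.16, limma adjusted p 0.022), though each of these calls was lost when any of its 4 libraries was left out. Eif4a2 passed in none, with changes of 0.42, 0.09 and -0.04. Of the helicase cofactors, Eif4b fell in total RNA, with 44.3 and 46.8 FPKM in 2-cell and 114 and 113 FPKM in 1-cell Dppa2-arm controls (log2 difference -1.30, SE 0.16, limma adjusted p 2.3e-05), and Eif4h passed in none.

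Among the late factors, Eif5a, which helps the ribosome past difficult peptide bonds and carries the amino acid hypusine, was abundant at both stages. It had 164 and 187 FPKM in 2-cell and 125 and 116 FPKM in 1-cell Dppa2-arm controls (log2 difference 0.54, SE 0.12, limma adjusted p 0.00135), a call that was lost with TPM. Its paralogue Eif5a2 (chr3:28781276-28798846, plus strand) rose at far lower levels and never exceeded 1.89% of the summed FPKM of the pair in the libraries of WT and control embryos. In Dppa2-arm controls it had 3.16 and 2.08 FPKM in 2-cell and 0.279 and 0.149 FPKM in 1-cell embryos (log2 difference 1.56, SE 0.25, limma adjusted p 0.000153), and in WT polyA RNA 6.41 and 4.34 FPKM in 2-cell and 0.116 and 0.552 FPKM in 1-cell embryos (log2 difference 2.26, SE 0.64, limma adjusted p 0.0151). Eif6, which keeps the large subunit apart until it is needed, was 307 and 248 FPKM in 2-cell and 70.1 and 62.7 FPKM in 1-cell WT polyA RNA (log2 difference 2.04, SE 0.38, limma adjusted p 0.000693). The polyA call of Eif5a2 was lost without WT 2-cell replicate 1 or WT 1-cell replicate 1, with an adjusted p of up to 0.113.

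In total RNA 1 of the 6 elongation factor genes tested was higher and 4 lower in Dppa2-arm controls, where 31.7% and 29.9% of all genes were, and 0 higher and 3 lower in Dppa4-arm controls, where 24.9% and 24.2% were. Their medians were -0.98 and -0.54, against 0.06 and 0.04 for all genes. In polyA RNA 0 of the 6 passed in limma (17.4% of all genes were higher and 8.42% lower). An unadjusted p under 0.05 was seen for 2 of the 6 and for 6817 of all 18506 genes. Their median there was 0.43, against 0.23 for all genes. Eef1a1, the carrier of aminoacyl-transfer RNA, had 133 and 115 FPKM in 2-cell and 355 and 318 FPKM in 1-cell Dppa2-arm controls (log2 difference -1.43, SE 0.19, limma adjusted p 2.95e-05), and 234 and 126 FPKM in 2-cell and 68.2 and 147 FPKM in 1-cell WT polyA RNA, which overlapped (log2 difference 0.77, SE 0.43, limma adjusted p 0.206). Other transcripts hold 39.4% of its 50-base stretches. Its exchange factor genes Eef1b2 and Eef1d changed by -1.02 and -0.94 in Dppa2-arm controls, where both passed, and by -0.22 and -1.46 in Dppa4-arm controls, where only Eef1d did.

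Eef1e1, whose product also belongs to the multisynthetase complex as AIMP3 (chr13:38644207-38659058, minus strand), fell most in total RNA of Dppa2-arm controls. It had 9.75 and 3.73 FPKM in 2-cell and 69.2 and 91.7 FPKM in 1-cell embryos there (log2 difference -3.50, SE 0.33, limma adjusted p 1.84e-06). In Dppa4-arm controls its levels were 7.97 and 11 FPKM in 2-cell and 74.2 and 83.4 FPKM in 1-cell embryos (log2 difference -2.94, SE 0.33, limma adjusted p 1.31e-05). The polyA levels did not overlap between stages either, at 89.3 and 87.4 FPKM in 2-cell and 289 and 247 FPKM in 1-cell embryos, but the change of -1.59 (SE 0.57, limma adjusted p 0.05) did not pass. Eef2, the translocase, passed in none, with 72.7 and 68.3 FPKM in 2-cell and 64.9 and 54.2 FPKM in 1-cell Dppa2-arm controls (log2 difference 0.25, SE 0.19, limma adjusted p 0.276). Its kinase gene Eef2k (chr7:120842831-120907450, plus strand), whose product slows elongation by phosphorylating eEF2, fell in all 3. WT polyA RNA had 9.41 and 4.84 FPKM of Eef2k in 2-cell and 28.4 and 33.3 FPKM in 1-cell embryos (log2 difference -2.03, SE 0.72, limma adjusted p 0.0462). This call was lost when any library of the comparison was left out. The Dppa4-arm call of Eef2k was lost with median-ratio scaling, no filter or only the compared libraries. It was also lost without either 1-cell control library or without 2-cell replicate 1.

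Start regions were available for 45 of the 59 genes from the RefSeq promoter table of GRCm38.p6, each window reaching from 250 bases before to 50 after an annotated start. The windows of members that rose and members that fell are shown so that the sequence around each start can be set beside the levels of its gene. Bases are written for 100 before to 30 after the start, and capitals mark the GC box GGGCGG, the CCAAT box CCAAT and the ETS core CCGGAAG on either strand. Eif5a2 (chr3:28781177-28781306, plus strand) and Eif3a (chr19:60790664-60790793, minus strand) were higher at the 2-cell stage in all 4 total RNA comparisons, and Eif1ax (chrX:159372078-159372207, plus strand) and Eif1b (chr9:120492506-120492635, plus strand) were lower in all 4.
Eif5a2: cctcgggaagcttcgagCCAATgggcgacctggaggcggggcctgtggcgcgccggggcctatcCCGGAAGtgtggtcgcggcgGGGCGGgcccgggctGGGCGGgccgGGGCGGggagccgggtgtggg
Eif3a: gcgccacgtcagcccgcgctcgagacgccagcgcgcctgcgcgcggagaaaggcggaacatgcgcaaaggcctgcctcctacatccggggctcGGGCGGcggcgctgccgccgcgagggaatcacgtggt
Eif1ax: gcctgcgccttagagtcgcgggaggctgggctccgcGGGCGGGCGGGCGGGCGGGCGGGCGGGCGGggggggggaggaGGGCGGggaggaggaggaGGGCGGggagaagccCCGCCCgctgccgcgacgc
Eif1b: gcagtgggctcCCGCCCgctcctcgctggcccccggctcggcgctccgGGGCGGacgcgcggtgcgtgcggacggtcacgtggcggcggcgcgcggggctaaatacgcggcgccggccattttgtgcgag
The GC box lay in the windows of 34 of the 45 genes, against 38.2% of all 27025 genes in that table, in 7 of the 8 genes with a window that rose every time and in 8 of the 10 that fell every time. The ETS core lay in 15 of the 45, against 9.93% of all genes, in 2 of the 8 and 3 of the 10. The CCAAT box lay in 13 of the 45, against 41.1%, and the TATA box TATAAA in 4, against 15.7%. The YY1 core AAGATGGCG lay in 2, against 1.64%. A match does not show that a factor binds there.

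Some translation factor messages are known in mammals to start with a C followed by a run of pyrimidines, the 5′ terminal oligopyrimidine (TOP) motif, through which mTOR and Larp1 control them. A list of 9 such members (Eef1a1, Eef1b2, Eef1d, Eef1g, Eef2, Eif3e, Eif3f, Eif3h and Eif4b) had 2 higher and 5 lower in Dppa2-arm controls (median -0.94), 1 higher and 4 lower in Dppa4-arm controls (median -0.41), and 2 higher and 0 lower in polyA RNA (median 0.77). Over all genes the shares higher and lower were 31.7% and 29.9% in Dppa2-arm controls (median 0.06), 24.9% and 24.2% in Dppa4-arm controls (0.04) and 17.4% and 8.42% in polyA RNA (0.23). At the RefSeq starts, a C followed by 4 pyrimidines stood in 3 of the 45 genes (Eif2c5, Eif2s3x and Eif3f), against 3.01% of all genes. Of these only Eif3f is on the list. Among the other listed members the pyrimidine run at the start was 0 bases in Eef1b2 and Eef2 and 1 in Eif4b. In Eef1a1 it was 5 without a leading C. Eef1d, Eef1g, Eif3e and Eif3h had no window. The RefSeq start need not be the start used in these embryos, which was not measured. A missing run there does not show that a message lacks the TOP motif. Windows from 10 bases before to 20 after the start are shown for Eif3f (chr7:108934405-108934434, plus strand), Eif2s3x (chrX:94212632-94212661, minus strand) and Eef1a1 (chr9:78481705-78481734, minus strand), with the pyrimidine run at the start in capitals.
Eif3f: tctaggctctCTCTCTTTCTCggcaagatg
Eif2s3x: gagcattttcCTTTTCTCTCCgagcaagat
Eef1a1: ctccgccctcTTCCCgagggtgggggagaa
Eif3f rose in both kinds of RNA, Eif2s3x in polyA RNA alone passed the test, and Eef1a1 fell in total RNA.

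The 55 members tested in both tables can be set side by side, with the limits that the tables were normalised separately, use different kits and compare embryos of different genotype labels. In polyA RNA of WT embryos and in total RNA of both control groups, 11 were higher each time, against 13.2% of all 13916 genes tested in both tables: Eif1a, Eif1ad, Eif2a, Eif2b5, Eif3a, Eif3f, Eif3j1, Eif4a3, Eif4ebp1, Eif4g2 and Eif5a2. Another 6 were lower each time, against 8.32% of all genes, namely Eef2k, Eif1b, Eif2b1, Eif2b3, Eif4e1b and Eif4e3. Higher in polyA RNA but in neither control group were 5, namely Eif1, Eif2s3x, Eif3g, Eif3h and Eif3j2, against 4.09% of all genes. The 9 that were lower in both control groups and did not pass in polyA RNA were Eef1a1, Eef1d, Eef1e1, Eif1ax, Eif2s2, Eif3d, Eif3e, Eif4b and Eif4g3, against 13.6% of all genes. A further 10 (Eef2, Eif2b2, Eif2d, Eif2s1, Eif3b, Eif3k, Eif4a2, Eif4e, Eif4h and Eif5b) passed in none of the 3, against 26.5%.

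Other genes of the translation pathway, a list of 41 with release factors, poly(A)-binding proteins, kinases and hypusine enzymes, moved in both directions as well. Of the 40 tested in total RNA, 16 were higher and 14 lower in Dppa2-arm controls (31.7% and 29.9% of all genes) and 14 higher and 13 lower in Dppa4-arm controls (24.9% and 24.2%), and in polyA RNA 15 of 41 were higher and 4 lower (17.4% and 8.42%). Their medians were 0.28, -0.02 and 1.00, against 0.06, 0.04 and 0.23 for all genes. Pabpc1, the poly(A)-binding protein of most cells, had 165 and 182 FPKM in 2-cell and 4.25 and 4.41 FPKM in 1-cell Dppa2-arm controls (log2 difference 5.03, SE 0.36, limma adjusted p 2.31e-07). Pabpc1l, its counterpart in eggs and early embryos, had 7.83 and 13 FPKM in 2-cell and 81.9 and 76.5 FPKM in 1-cell embryos of the same group (log2 difference -2.85, SE 0.33, limma adjusted p 1.1e-05). Pabpc1 was thus 95.5% and 93.4% of the pair in those 2-cell and 4.93% and 5.46% in those 1-cell libraries, and 99.5% and 94.3% in 2-cell and 1.96% and 1.08% in 1-cell WT polyA RNA. Of the genes that make hypusine on eIF5A, Dhps had 48.8 and 55.7 FPKM in 2-cell and 1.94 and 2.85 FPKM in 1-cell WT polyA RNA (log2 difference 3.98, SE 0.47, limma adjusted p 5.92e-06). In Dppa2-arm controls it had 21.5 and 6.01 FPKM in 2-cell embryos, which were unlike each other, and 2.52 and 2.04 FPKM in 1-cell embryos (log2 difference 1.94, SE 0.48, limma adjusted p 0.0034). It did not pass in Dppa4-arm controls, with 8.36 and 4.53 FPKM in 2-cell and 2.72 and 2.81 FPKM in 1-cell embryos (log2 difference 0.93, SE 0.48, limma adjusted p 0.121). Dohh rose in all 3, by 3.14 (SE 0.76, limma adjusted p 0.00509) in polyA RNA, 1.92 (SE 0.33, limma adjusted p 0.000265) in Dppa2-arm controls and 1.57 (SE 0.33, limma adjusted p 0.00169) in Dppa4-arm controls. Larp1, which binds TOP messages, rose by 2.45, 2.97 and 2.14 in polyA RNA, Dppa2-arm and Dppa4-arm controls. Gigyf2, a partner of Eif4e2, was higher in polyA RNA (log2 difference 2.21, SE 0.52, limma adjusted p 0.00461) and lower in Dppa2-arm controls (log2 difference -1.74, SE 0.30, limma adjusted p 0.000265). Its levels in Dppa4-arm controls were also lower at the 2-cell stage, at 26.7 and 25.1 FPKM, against 70.0 and 76.0 FPKM in 1-cell embryos.

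Between m-z+ and control embryos no member passed the threshold. In total RNA, 0 of the 55 were called in limma between m-z+ and control embryos at either stage of either arm, where 0.186% of all genes were called in Dppa2 2-cell embryos, 0.0398% in Dppa2 1-cell embryos, 0% in Dppa4 2-cell embryos and 0.00664% in Dppa4 1-cell embryos. At an unadjusted p under 0.05 there were 2 members in Dppa2 2-cell and 2 in Dppa2 1-cell embryos, and 0 in both Dppa4 comparisons, where 1932, 459, 402 and 192 of all genes did so in Dppa2 2-cell, Dppa2 1-cell, Dppa4 2-cell and Dppa4 1-cell embryos. The median change of the members was -0.04, 0.10, -0.03 and 0.05 in these 4 comparisons. The 95% interval lay within ±1 for 48, 48, 47 and 53 of the 55 members, which bounds the change of each in FPKM + 1 at under 2-fold. For members near or below 1 FPKM it does not bound the change in FPKM itself.

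The member nearest to the threshold was Eif4h, a cofactor of the eIF4A helicase (chr5:134619721-134639490, minus strand). It had 10.1 and 13.6 FPKM in m-z+ and 26.4 and 20.7 FPKM in control 2-cell embryos of the Dppa2 arm, without overlap, a change of -0.93 (SE 0.20, limma adjusted p 0.0705) with a 95% interval of -1.37 to -0.49. It was called when replicate 2 of either 2-cell group was left out, which made 1 member called. In the Dppa4 arm Eif4h had 11.2 and 12.5 FPKM in m-z+ and 13.2 and 11.5 FPKM in control 2-cell embryos, a change of -0.06. The stage change itself was also compared between m-z+ and control embryos, and 0 members passed in either arm (0% and 0.00664% of all genes). At an unadjusted p under 0.05 there were 3 and 0 members in the Dppa2 and Dppa4 arms, and 1299 and 270 of all 15068 genes.

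**Figure D4:**
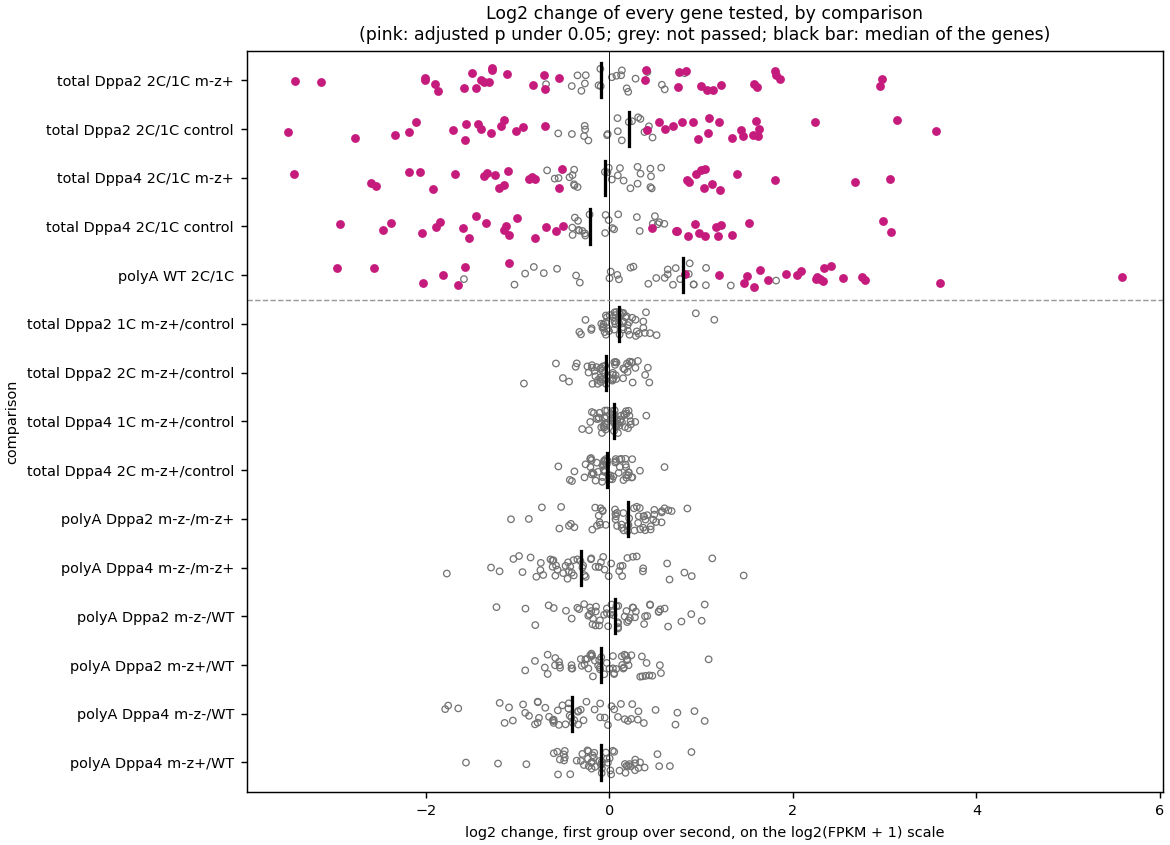
Log2 changes of every member tested (x axis, first group over second, log2(FPKM + 1) scale) in the stage comparisons, above the dashed line, and the genotype comparisons, below it; black bars are medians. Called members, in pink, appear above the line only, and the points below it lie closer to 0 in total RNA than in polyA RNA.

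Embryos labelled as without maternal and zygotic product were compared with m-z+ embryos in polyA RNA, again with 0 members called in limma. In the Dppa2 arm the libraries labelled m-z- and the m-z+ libraries gave a median change of 0.20 (all genes -0.07), with 0.0054% of all genes called. At an unadjusted p under 0.05 there was 1 member there, and 1415 of all 18506 genes. In the Dppa4 arm the median change of the members in m-z- over m-z+ embryos was -0.31 (all genes 0.08), with 0.0162% of all genes called. An unadjusted p under 0.05 was seen for 7 of the 58 members and for 1296 of all 18506 genes. The median stayed between -0.33 and -0.24 when any of the 6 libraries was left out. Maternal markers moved in these libraries too, with sums of 1012, 676 and 851 FPKM in the m-z- embryos, against 346, 596 and 719 FPKM in the m-z+ ones, and the share of RNA in the 59 genes was lowest, at 0.644%, in m-z- replicate 1; their part in the result was not tested. Precision was lower than in total RNA, since the 95% interval lay within ±1 for 21 members of the Dppa2 comparison and 13 of the Dppa4 comparison.

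Among 2-cell polyA libraries Eif2s3x stood lowest in the Dppa4 m-z- embryos. It had 12.7, 11.5 and 12.5 FPKM there, against 40.0, 46.9 and 46 FPKM in the m-z+ embryos of the same arm, without overlap (log2 difference -1.77, SE 0.38, limma adjusted p 0.399, 95% interval -2.57 to -0.98). Against the WT 2-cell embryos, at 31.5 and 63.4 FPKM, the change was -1.79 (SE 0.42, limma adjusted p 0.169). The libraries labelled Dppa2 m-z- had 27.3, 21.5 and 41.5 FPKM and Dppa2 m-z+ embryos 18.8, 41.9 and 26.8 FPKM, which overlapped. Neither Dppa4 change passed. Eif4ebp1 was the highest in that Dppa4 comparison, with 36.4, 95.9 and 54.6 FPKM in m-z- and 30.3, 12.8 and 21.4 FPKM in m-z+ embryos (log2 difference 1.46, SE 0.42, limma adjusted p 0.59).

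The 4 mutant groups were also set against the same 2 WT 2-cell embryos, and 0 members were called in limma in any of them. At an unadjusted p under 0.05 there were 7 members for Dppa4 m-z- and 3 for Dppa4 m-z+, where 1976 and 1230 of all 18506 genes did so. The libraries labelled Dppa2 m-z- gave 1 and Dppa2 m-z+ gave 0, where 1149 and 1435 of all genes did so. In the same order 0.0648%, 0%, 0.0973% and 0.113% of all genes were called. In Dppa4 m-z- embryos the largest change after that of Eif2s3x was that of Eif3e, at 18.6, 36.3 and 29.5 FPKM there, against 84.1 and 106 FPKM in WT 2-cell embryos (log2 difference -1.76, SE 0.42, limma adjusted p 0.169). The maternal marker sums were also apart, at 1012, 676 and 851 FPKM in the mutants, against 415 and 371 FPKM in WT, and their part was not tested. The largest changes of the other groups were those of Eif3d in Dppa4 m-z+ (-1.56), Eef2k (-1.23) in the libraries labelled Dppa2 m-z- and Eif5a2 (1.08) in Dppa2 m-z+ embryos. Eif5a2 had 7.24, 22 and 11.4 FPKM in Dppa2 m-z+ and 6.41 and 4.34 FPKM in WT 2-cell embryos. Eif4ebp3, the third eIF4E inhibitor, was listed at 0, 0 and 0 FPKM in Dppa2 m-z+ and at 2.57 and 0 FPKM in WT 2-cell embryos, so it was detected in 1 of these 5 libraries. These comparisons share their WT libraries, and the Dppa2 arm differs from WT in strain as well.

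Between the arms, 6 of 55 members were called in control embryos at the 2-cell stage, or 10.9%, near the 9.13% of all genes. There 15 of the 55 had an unadjusted p under 0.05, as did 3975 of all 15068 genes. At the 1-cell stage 0 were called in limma (1.01% of all genes), with 2 members and 1167 of all genes at an unadjusted p under 0.05. The largest 2-cell difference was that of Eef2k. It had 31.6 and 40.4 FPKM in 2-cell Dppa2-arm controls (B6/DBA) and 123 and 216 FPKM in 2-cell Dppa4-arm controls (B6), a difference of -2.16 (SE 0.21, limma adjusted p 0.000264). The 1-cell levels were closer, at 186 and 183 FPKM in Dppa2-arm and 258 and 231 FPKM in Dppa4-arm controls. The stage change of Eef2k was -2.34 in Dppa2-arm and -0.58 in Dppa4-arm controls, and these differed by -1.76 (SE 0.30, limma adjusted p 0.0446), with a 95% interval of -2.40 to -1.12; 0.139% of all genes passed that test. Its adjusted p reached 0.193 across the alternatives, and leaving out 1 library ended the call for 6 of the 8 libraries, all except replicate 2 of the 2-cell Dppa2-arm controls and replicate 1 of the 2-cell Dppa4-arm controls.

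The other members called between 2-cell controls were Eef1g, Eif2b4, Eif3m and Eif4h, higher in the Dppa2 arm by 1.54, 0.84, 1.18 and 0.87, and Eif4e1b, lower there with a change of -0.69, with limma adjusted p of 0.00936 (Eef1g) to 0.0451 (Eif2b4). The count rested on single libraries. It was 1, Eef2k, without replicate 2 of the 2-cell Dppa4-arm controls, 16 without replicate 1 of that group and 3 without replicate 1 of the 2-cell Dppa2-arm controls. That second Dppa4-arm library stood apart, with a maternal marker sum of 593 FPKM against 379 FPKM in the first, and with 216 against 123 FPKM of Eef2k. With TPM the split of calls was 1 higher and 3 lower, as against 4 and 2, and 1253 of all genes were called, as against 1375.

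The m-z+ embryos of the arms, compared after the difference in controls had been seen, gave Eef2k levels of 48.2 and 46.2 FPKM in 2-cell Dppa2 m-z+ embryos, against 133 and 149 FPKM in those of the Dppa4 arm (log2 difference -1.56, SE 0.21, limma adjusted p 0.00306). In that comparison 5 members were called (4.25% of all genes), 1 to 3 when a library was left out, and 3 with TPM. At the 1-cell stage the levels were 184 and 203 FPKM in Dppa2 m-z+ embryos, against 240.3 and 257 FPKM in those of the Dppa4 arm, and the difference in stage change between these embryos did not pass (log2 difference -1.20, SE 0.30, limma adjusted p 0.164). In polyA RNA Eef2k had 6.20, 1.98 and 3.09 FPKM in Dppa2 m-z+ embryos, against 7.64, 5.12 and 12.7 FPKM in those of the Dppa4 arm. That difference of -1.01 did not pass. Of the members 0 were called in limma (0.2% of all genes), and 7 had an unadjusted p under 0.05, as did 2073 of all 18506 genes. Eef2k was lower in every 2-cell Dppa2-arm library than in every 2-cell Dppa4-arm library of total RNA. The summed level of the 5 maternal markers separated the same libraries, with 253 to 343 FPKM in the 4 of the Dppa2 arm and 379 to 593 FPKM in the 4 of the Dppa4 arm at the 2-cell stage, and its part in the differences between arms was not tested.

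**Figure D5:**
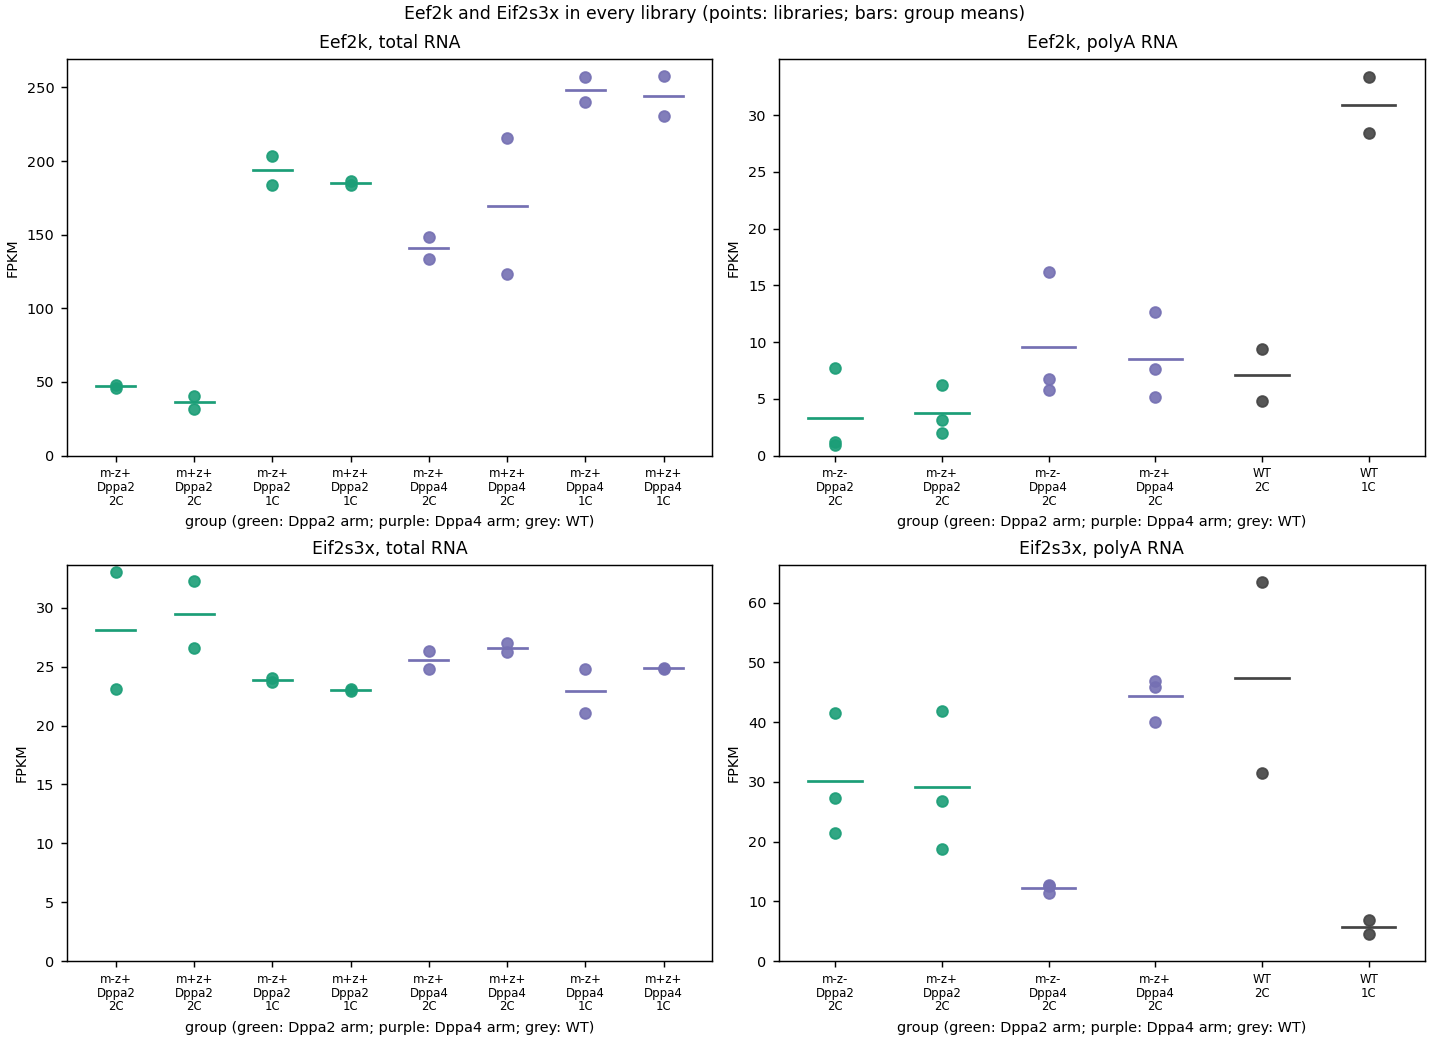
FPKM (y axis, linear) of Eef2k, upper panels, and Eif2s3x, lower panels, in every library of total RNA, left, and polyA RNA, right; points are libraries and bars group means. The 2-cell Dppa2-arm libraries of Eef2k lie between 31.6 and 48.2 FPKM in total RNA and the 2-cell Dppa4-arm ones between 123 and 216 FPKM, and the 3 Dppa4 m-z- embryos of Eif2s3x lie between 11.5 and 12.7 FPKM.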

How the data were processed

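RNA was measured in 32 libraries, 16 of total RNA and 16 of polyA RNA. The submitters' processing notes name HISAT2 2.1.0, StringTie 1.3.3b and the mm10 build, and the authors deposited FPKM values, gene by gene, in 1 table per kind of RNA. The gene annotation they counted on is not given in the sources used here. Total RNA libraries were strand-specific and polyA libraries were not, per the labels' protocols. FPKM values carry no read counts, so depth, counting intervals and detection floors cannot be given. Here the values were tested on log2(FPKM + 1) with limma 3.58.1 (R 4.3.3, statmod 1.5.0), with trended and robust variances, after keeping genes of at least 1 FPKM in at least 2 libraries. All 16 libraries of a table entered 1 fit with a mean per group, and p-values were adjusted by Benjamini-Hochberg over all genes tested. Intervals are at 95%. The procedure was tested on simulated data. GENCODE M21 (mm10) held all 59 identifiers and gave their positions and shared 50-base stretches. Alternatives were a pseudocount of 0.1, no filter, a filter at 5 FPKM, TPM and median-ratio scaling, a fit of only the compared libraries, a replicate block, and each library left out in turn.

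Members, lists and tests were chosen with earlier results of these data known. Values per library were to be given for Eif1a, Eif3a, Eif2s3x, the paralogue sets of Eif1, Eif3j, Eif4a, Eif4e, Eif4ebp, Eif4g, Eif5a and Eef1a, the 4 largest called rises and falls of each stage comparison, every member called between genotypes or arms, and the 2 largest changes where none was called. Other members with values, such as Eif2s1, Eif2b1, Eif4b, Eif5, Eif6 and Eef2, and the genes named from the rest of the pathway were chosen after their values were seen.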

Additional observations from a re-analysis of the deposited data

Results flagged for a closer look

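The stage change of Eef2k, the kinase gene of eEF2, differed between the control embryos of the arms. The difference, Dppa2 arm minus Dppa4 arm, was -1.76 on the log2(FPKM + 1) scale (SE 0.30, limma adjusted p 0.0446), as both stages and both arms entered 1 test of the difference itself. Arm and strain cannot be told apart. At the 2-cell stage the summed level of the 5 maternal markers was 253 and 269 FPKM in Dppa2-arm controls and 379 and 593 FPKM in Dppa4-arm controls, and its part in the difference was not tested.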

How the results depend on the processing

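Of the 173 called changes of single members, 1903 values under alternatives held 1665 on the same side of the threshold, 237 that no longer passed and 1 reversal, Eif5 in Dppa2-arm controls with TPM (-0.056 with TPM, 0.41 without). For the stage change of Dppa2-arm minus Dppa4-arm controls the count of members was 1, and it was 0 with no filter, TPM, median-ratio scaling or only the compared libraries, and 0 to 3 with a library left out. Between 2-cell controls of the arms it was 6, and 3 with no filter, 0 with only the compared libraries and 1 to 16 with a library left out. Between 2-cell m-z+ embryos of the arms, a comparison chosen after seeing the data, it was 5, and 1 with no filter, 3 with TPM, 3 with the replicate block, 0 with only the compared libraries and 1 to 3 with a library left out; their stage change gave 0 to 1. Left-out libraries gave 18 to 19 calls in WT polyA RNA (28 with all) and 0 to 1 between Dppa2 m-z+ and control 2-cell embryos. Deviations of same-numbered libraries correlated weakly, at -0.14 to 0.14 in total RNA (56 pairs) and -0.18 to 0.12 in polyA RNA (36 pairs). With 2 libraries a group their deviations mirror each other, so in total RNA each value occurs for both replicate numbers and the pairs are not independent. With the replicate block 36 members were called in Dppa2-arm and 32 in Dppa4-arm controls, 34 in Dppa2 and 30 in Dppa4 m-z+ embryos, 26 in WT polyA RNA and 5 between 2-cell controls. With 2 libraries a group and no read counts, small changes and low genes such as Eif4ebp3 were not resolved.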

Other observations

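Eif2s3y, the Y-linked counterpart of Eif2s3x that the name rule leaves out, was listed at 0 in some single embryos and well above 0 in others. Its polyA level was 31.3, 48.7 and 0 FPKM in the libraries labelled Dppa2 m-z-, and 64.0, 23.1 and 0 FPKM in Dppa2 m-z+ embryos. Dppa4 m-z- embryos had 0, 21.1 and 50.8 FPKM, and Dppa4 m-z+ embryos 33.6, 0 and 0 FPKM. WT embryos had 46.5 and 0 FPKM at the 2-cell stage and 0 in both libraries at the 1-cell stage. In total RNA it was between 2.52 and 7.18 FPKM in the 8 libraries of 2-cell embryos and at most 0.109 FPKM in the 8 of 1-cell embryos. In the same order of embryos, Eif2s3x was 12.7, 11.5 and 12.5 FPKM in the Dppa4 m-z- group and 40.0, 46.9 and 46.0 FPKM in the Dppa4 m-z+ group. It was 27.3, 21.5 and 41.5 FPKM in the libraries labelled Dppa2 m-z- and 18.8, 41.9 and 26.8 FPKM in Dppa2 m-z+ embryos. WT 2-cell embryos had 31.5 and 63.4 FPKM of it. The relation between these genes was not tested.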
